A study of Homo sapiens with 8 samples.

Results

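The level of 9 genes of basal and myoepithelial breast cells was followed across 8 arrays: the regulators TP63 and SNAI2, the intermediate filament gene VIM, the contractile genes ACTA2, MYLK, TAGLN and CNN1, and the receptors CD44 and OXTR. All probes with one of these symbols were taken, with TP63 listed under its older name TP73L, which gave 12 probes among 20589 on the array and 9 genes among 18128. The cells were MCF10A-5E, a clone of the human breast epithelial line MCF10A, which is immortalised and does not form tumours. They were grown in Matrigel with EGF, horse serum, hydrocortisone, cholera toxin and insulin, and all samples shared these conditions and were taken at day 6. In such cultures the cells form acini, spheres with an outer layer that touches the matrix and inner cells that do not. Laser microdissection of 8 µm sections gave about 50 cells per sample. The 4 outer samples held matrix-attached cells, and the 4 inner samples held cells without that contact. Poly(A) PCR was used to amplify the RNA, and each sample was read on 1 Illumina HumanRef-8 v2.0 array.

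In the breast, myoepithelial cells line the outside of ducts and alveoli, hold a smooth muscle-like contractile machinery and squeeze milk outward when oxytocin binds its receptor. TP63 is a p53-family transcription factor that maintains basal epithelial cells, and SNAI2 (Slug) is a zinc finger repressor known from basal breast cells and from epithelial-mesenchymal transition. Many smooth muscle genes, ACTA2, TAGLN and CNN1 among them, carry CArG boxes, the DNA element bound by serum response factor (SRF) with its myocardin-related partners.

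Of the 9 genes, TP63, VIM, ACTA2 and CD44 were detected on all 8 arrays, SNAI2 was detected on 3 arrays, and MYLK, TAGLN, CNN1 and OXTR were detected on 0. Detection here means a deposited detection p below 0.01. Of the 4 genes that were tested, 0 were called different between outer and inner cells at an adjusted p below 0.05 (limma, adjusted p = 0.839 to 0.909). Of all 6698 tested probes 0.0597% were called, 4 in number, with 0.0149% higher and 0.0448% lower in outer cells. ACTA2 and VIM had the higher mean in outer cells and TP63 and CD44 the higher mean in inner cells, in each case within the spread between arrays. At an unadjusted p below 0.05 the count was also 0 of 4, against 8.06% of all tested probes.

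The arrays had mean intensities of 344.4 to 533.0 and between 6429 and 7000 detected probes. The outer and inner arrays differed by -116.5 detected probes on average, which did not exceed the spread (two-sided exact permutation test, p = 0.371, the smallest p it can give being 0.0286). The difference was -15.8 without inner replicate 3, -65.8 without outer replicate 4, and -242 with a detection p below 0.05 (exact p = 0.0857). Of the 10 breast epithelial markers, 8 were detected on all 8 arrays, and CDH1, the epithelial cadherin, on 0. Of the 8 markers of vascular smooth muscle and pericytes, NOTCH3 was detected, and MYH11, DES, LMOD1 and MYOCD were at 0 arrays. Leukocyte markers numbered 3 of 8 detected on any array, endothelial markers 1 of 8 and fibroblast markers 7 of 12. According to the design text the amplification was done in quadruplicate, and no label names separate cultures. The p-values here thus cover the spread between these arrays alone, which may be technical. Fewer cells expressing a gene and less RNA per cell cannot be told apart in such pools.

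**Figure D1:**
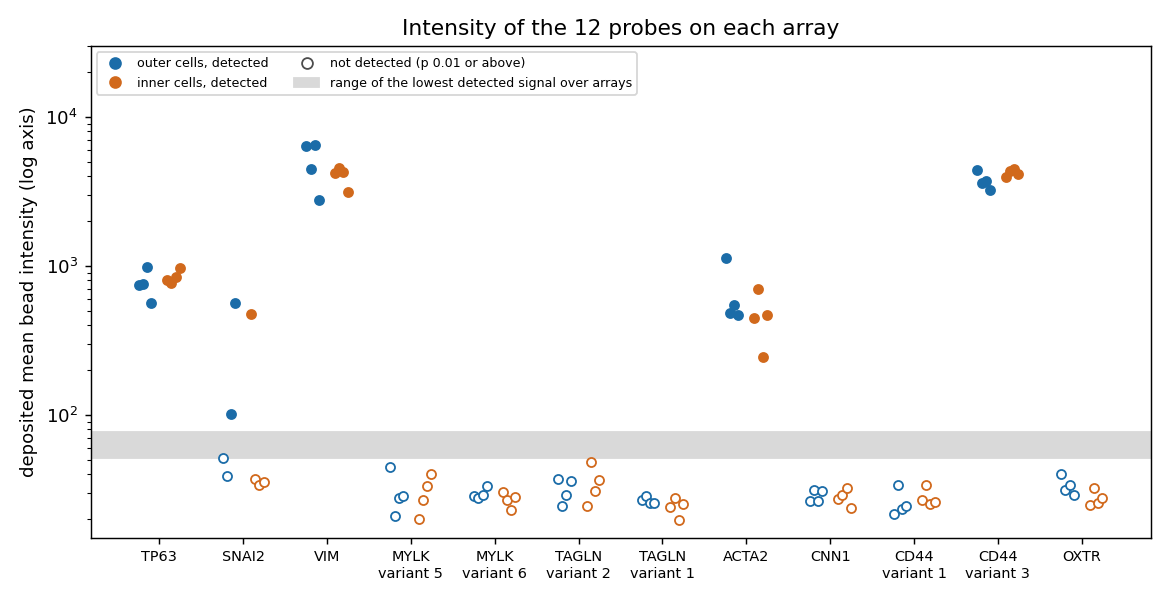
Deposited mean bead intensity (log axis) of the 12 probes on the 4 outer (blue) and 4 inner (orange) arrays, one point per array, filled where the detection p was below 0.01 and open elsewhere. The grey band spans the lowest detected signal over the arrays, 51.4 to 77.0. TP63, VIM, ACTA2 and the variant 3 probe of CD44 lie above the band on all 8 arrays, SNAI2 on 3, and the other 7 probes lie below it throughout. Brightness depends on the probe, so heights of different probes are not to be compared.

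TP63 (probe ILMN_13484) was measured well above background in both compartments. Its deposited intensity was 751, 759.5, 992 and 560.4 on outer replicates 1 to 4. On inner replicates 1 to 4 it was 801, 765, 847 and 971. Both the highest and the lowest of the 8 intensities were outer arrays, so the groups overlapped and the inner intensities lay inside the outer range. The mean was 766 ± 177 over the outer and 846 ± 89.8 over the inner arrays (SD, n = 4 each, as in all such values). After normalisation the log2 intensity was 9.50 ± 0.31 in outer and 9.73 ± 0.40 in inner cells. On that scale inner replicates 1 and 4, at 10.05 each, lay above every outer array, the highest of which was 9.81. The groups still overlapped, as inner replicate 2 was at 9.22. The log2 difference, outer minus inner, was -0.24 (standard error 0.28, limma, adjusted p = 0.890). Its 95% interval of -0.89 to 0.42 covers folds of outer over inner from 0.538 to 1.34. Leaving out inner replicate 2 gave -0.41, leaving out inner replicate 1 or 4 gave -0.13, and leaving out outer replicate 4 gave -0.14. The authors' deposited table gives inner over outer ratios of 1.09 from the raw and 1.25 from the scaled intensities for this probe.

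SNAI2 (probe ILMN_29336) was the member that varied most from array to array. Its intensity was 51.6, 38.8, 101.9 and 563.4 on outer replicates 1 to 4, and 477, 37.2, 34.0 and 35.3 on inner replicates 1 to 4. The probe was detected on outer replicates 3 and 4 and inner replicate 1, and on the other 5 arrays its detection p lay between 0.114 and 0.456. One outer and 1 inner array thus stood more than 10 times above the undetected arrays of its group. The highest of the 8 values was 16.6 times the lowest. Both bright values rested on many beads, with a bead standard error of 27.9 over 51 beads on outer replicate 4 and 29.8 over 64 beads on inner replicate 1. Such patterns were common on these arrays, as 697 probes were detected on exactly 3 arrays, and 177 of them had a highest over lowest intensity at least as large as that of SNAI2.

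Between the groups the log2 difference of SNAI2 was 0.54. Fitted without the detection filter, it had a standard error of 1.48 and a 95% interval of -2.97 to 4.04 (limma, adjusted p = 0.968). A two-sided exact permutation test over the 8 arrays gave p = 0.486. The difference was -0.44 without outer replicate 4 and 1.72 without inner replicate 1, so its sign rested on 1 array. These data therefore bound the difference only loosely. The deposited inner over outer ratio in the authors' table, 0.472 from the raw intensities, is a ratio of medians of 4 arrays and has no error attached to it. From the scaled intensities it is 0.497.

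VIM (probe ILMN_676) encodes vimentin, the intermediate filament protein of mesenchymal and of many basal and cultured epithelial cells. Its intensity was 6419.5, 4484, 6511 and 2761 on outer replicates 1 to 4. On inner replicates 1 to 4 it was 4179, 4581, 4247 and 3156. Outer replicates 1 and 3 lay above every inner array, and outer replicate 4 lay below every inner array, so the groups overlapped. The mean was 5044 ± 1786 in outer and 4041 ± 615 in inner cells. The normalised log2 intensity was 12.21 ± 0.52 against 11.99 ± 0.27. The log2 difference was 0.22 (standard error 0.31, 95% interval -0.50 to 0.95, limma, adjusted p = 0.909). Single arrays moved it: it was 0.46 without outer replicate 4 and 0.35 without inner replicate 1. It was 0.09 without outer replicate 3, 0.10 without outer replicate 1 and 0.13 without inner replicate 4.

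ACTA2 (probe ILMN_6588), smooth muscle alpha-actin, is the usual marker of myoepithelial cells in the breast. Its intensity was 1127, 481, 552 and 469 on outer replicates 1 to 4. On inner replicates 1 to 4 it was 451, 704, 244 and 469. One outer array stood above all others and 1 inner array below all others, while the remaining 6 lay between 451 and 704 with the groups mixed. The bead standard error, which covers noise within an array only, was at most 7.51% of the intensity. The mean was 657 ± 315 in outer and 467 ± 188 in inner cells. The normalised log2 intensity was 9.22 ± 0.48 against 8.76 ± 0.67. At 0.46 its log2 difference was the largest of the 4 tested genes and was not called (standard error 0.40, 95% interval -0.48 to 1.40, limma, adjusted p = 0.839). It was 0.13 without inner replicate 3 and 0.22 without outer replicate 1. The authors' deposited table gives inner over outer ratios on both sides of 1 for this gene, 0.891 from the raw and 1.04 from the scaled intensities.

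The contractile genes MYLK, TAGLN and CNN1 were not detected on any array in either compartment. MYLK encodes the myosin light chain kinase that starts smooth muscle contraction, TAGLN encodes transgelin (SM22 alpha), an actin-binding protein, and CNN1 encodes calponin, which binds actin and tropomyosin. The intensity of CNN1 (probe ILMN_29392) was 26.6, 31.5, 26.4 and 31.0 on the outer arrays and 27.2, 29.0, 32.2 and 23.9 on the inner arrays. The MYLK probes lay between 20.2 and 44.7 for variant 5 (ILMN_15759) and between 23.0 and 33.6 for variant 6 (ILMN_5690). The TAGLN probes lay between 24.4 and 48.0 for variant 2 (ILMN_2335) and between 19.9 and 28.6 for variant 1 (ILMN_30232). None of these values reached the lowest detected signal on any array, which was 51.4 on the array where it was lowest. In both compartments alike the arrays therefore showed ACTA2 without these 3 partners at a detectable level. With both groups at background no fold is given, and on every one of these probes the group means differed by at most 0.11 on the log2 scale.

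OXTR (probe ILMN_7313), the oxytocin receptor through which milk ejection is triggered, was likewise detected on 0 arrays. Its intensity was 40.0, 31.4, 34.0 and 29.2 on the outer arrays and 25.1, 32.5, 25.6 and 27.8 on the inner arrays. The lowest detection p of OXTR was 0.309, on outer replicate 1. Over all 7 undetected probes of the 9 genes the detection p lay between 0.102 and 0.996, and each mean rested on 20 to 51 beads. A missed detection does not show that a transcript was absent. ACTG1, FLNA, TLN1 and ROCK1, which most cells express, were also detected on 0 arrays, ACTB on 3, and 51.7% of all probes on 0.

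Promoter sequences from RefSeq (GRCh38.p14), 250 bases before to 50 after a transcript start, were searched for the CArG box before the start on both strands, either exact or with at least 5 of the 6 core bases A or T. They are shown because 3 of the smooth muscle and oxytocin receptor genes carry such a match, one of them detected here and the others not. Windows were found for 7 of the 9 genes, 10 in all, with none for SNAI2 and TAGLN. An exact box stood in 1 of the 10 and a box of the looser kind in 3, against 1.16% and 7.04% of all 35116 windows. Each stretch below runs 5′ to 3′ on the minus strand, with the CArG boxes in capitals.
ACTA2, chr10:88952815-88952914: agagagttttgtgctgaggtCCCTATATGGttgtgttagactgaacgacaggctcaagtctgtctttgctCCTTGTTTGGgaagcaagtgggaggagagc
MYLK, chr3:123620613-123620662: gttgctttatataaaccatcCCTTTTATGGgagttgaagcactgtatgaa
OXTR, chr3:8769665-8769714: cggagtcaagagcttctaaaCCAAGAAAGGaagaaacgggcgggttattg

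The ACTA2 boxes lie 121 and 71 bases before one of its 2 starts in the table, each with 1 core base other than A or T. The exact MYLK box lies 94 bases before a start inside the gene, near its 3′ end, and not before the start of the long kinase transcripts. The OXTR box lies 81 bases before one of its 3 starts. The windows of TP63, VIM, CD44 and CNN1 held no match, which says only that these letters are not in those windows. ACTA2 was bright on all 8 arrays, and the MYLK and OXTR probes were at background on all 8. A match is a feature of the letters and was not set against binding.

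CD44, the hyaluronan receptor that is strong on basal breast cells, was detected with 1 of its 2 probes. The variant 3 probe (ILMN_7737) was bright, at 4431, 3626, 3738 and 3230.2 on outer replicates 1 to 4 and 3946, 4338, 4446 and 4121 on inner replicates 1 to 4. By intensity outer replicates 2, 3 and 4 lay below every inner array, while outer replicate 1 lay among the inner arrays. After normalisation only outer replicate 4 lay below every inner array. The variant 1 probe (ILMN_6000) lay between 21.7 and 34.0 and was detected on 0 arrays. The 2 probes are annotated to different transcript variants, and their levels cannot be set against each other.

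The mean intensity of the variant 3 probe was 3756 ± 499.8 in outer and 4213 ± 224 in inner cells, and the normalised log2 intensity was 11.85 ± 0.12 against 12.05 ± 0.21. All 4 outer arrays lay below the inner mean on that scale, yet the groups overlapped. The log2 difference was -0.21 (standard error 0.20, 95% interval -0.68 to 0.26, limma, adjusted p = 0.858), and -0.13 without inner replicate 1. This was the most tightly measured of the 4 tested genes: the interval leaves room for at most a 1.60-fold higher level in inner cells and a 1.20-fold higher level in outer cells.

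**Figure D2:**
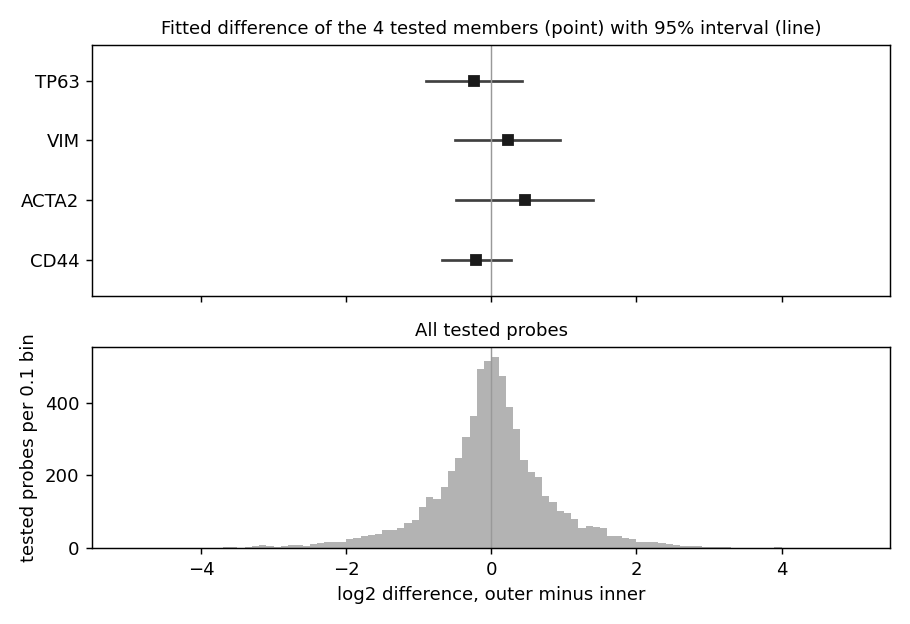
Upper panel: fitted log2 difference (outer minus inner, point) with its 95% interval (line) of the 4 tested genes. Lower panel: the same difference for all 6698 tested probes, in bins of 0.1. All 4 intervals span 0, and all 4 points lie between the 10th and 90th percentiles of all probes, -0.94 and 0.99.

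On the normalised scale outer replicate 4 was the lowest outer array for all 4, and it was the outer array on which SNAI2 was brightest. ACTA2 was highest on outer replicate 1, where TP63 was among the lowest values. Among the probes of other genes closest to each in profile over the 8 arrays were KLHL26 (Pearson r = 0.988) and CHUK (0.955) for TP63. For VIM LUC7L2 (0.983) was the closest, for ACTA2 NPC1 and LSM14A (0.958 each), and for CD44 CNOT1 (0.959) and TAF7 (0.957). Each r is a description over 8 arrays, picked as the highest of 6697 probes, and all points share the arrays' amplification and normalisation. None of these closest probes belonged to the 9 genes.

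**Figure D3:**
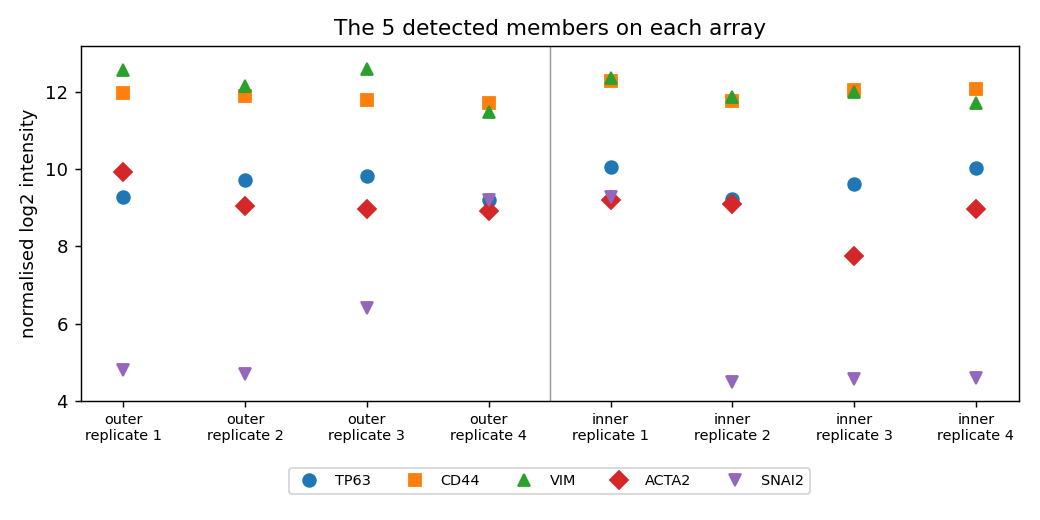
Normalised log2 intensity of the 5 genes detected on any array, plotted for each of the 8 arrays, outer on the left and inner on the right. SNAI2 stands high on outer replicate 4 and inner replicate 1 and intermediate on outer replicate 3, while the other 4 genes vary less. Heights of different genes are not to be compared.

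The wider contractile machinery was described through a list of 36 genes on the array. Of these, 20 were tested, 12 with the higher mean in outer and 8 in inner cells, with a median log2 difference of 0.12 against 0.0067 over all 6572 tested genes. That median was 0.05 without outer replicate 3, 0.03 with the looser detection filter and 0.00 with no filter. None was called (limma, adjusted over all probes), and 2 upward and 0 downward differences had an unadjusted p below 0.05, against 4.08% and 3.99% of all tested probes. SMTN, smoothelin, a cytoskeletal protein of contractile smooth muscle, had outer intensities of 107.5, 74.5, 87.3 and 75.6 and inner ones of 52.0, 74.1, 52.5 and 40.0. Its log2 difference was 0.87 (standard error 0.23, adjusted p = 0.437), and it was detected on 4 outer arrays and 1 inner array, so that the inner values lie near background. CALM3, one of the genes for calmodulin, the calcium sensor that activates MYLK, was bright on every array. Its log2 difference was 0.71 (standard error 0.22, adjusted p = 0.499). After normalisation the outer arrays of SMTN and CALM3 all lay above their inner arrays. For SMTN the intensities were barely apart, at 74.5 on the lowest outer and 74.1 on the highest inner array. SMTN passed the filter mainly through the outer arrays, where it was higher, so its direction is partly set by the filter. The groups did not overlap for 5.26% of all tested probes. CNN2, the non-muscle relative of CNN1, differed by 0.42 and CSRP1, a LIM protein of smooth muscle, by 0.28, with overlapping groups. Of the 36 genes 12 were detected on 0 arrays, among them the smooth muscle myosin MYH11, the smooth muscle actin ACTG2 and LMOD1.

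SRF, its partners and a few of their targets were tested for 7 of 14 genes, 4 higher and 3 lower in outer cells, with a median log2 difference of 0.64. None was called, and 2 upward and 0 downward differences had an unadjusted p below 0.05, against 4.08% and 3.99% of all tested probes. CCN1, a secreted matricellular protein listed as CYR61, differed by 1.17 (standard error 0.41, adjusted p = 0.544), with outer intensities of 172.9, 68.7, 82.8 and 90.8 and inner ones of 50.4, 44.4, 84.1 and 32.5. FOSL1, the AP-1 subunit FRA1, differed by 1.24 (standard error 0.47, adjusted p = 0.571). The groups overlapped for both, through inner replicate 3 for CCN1 and inner replicate 2 for FOSL1. FHL2, a LIM cofactor, differed by 1.19, and TGFB1I1 (HIC5), a focal adhesion adaptor, by -1.09, with standard errors of 0.93 and 0.61. Without inner replicate 1, its dimmest array, FHL2 was at 0.25, and without inner replicate 3 TGFB1I1 was at -0.67. CCN1 was detected on 4 outer arrays and 1 inner array, and TGFB1I1 on 1 outer array and 3 inner arrays. Each thus passed the filter mainly through the group where it was higher. The list's median was 0.10 or less when dim probes entered it, and 0.07 with another background estimate, and it was 0.25 without inner replicate 1 and 0.29 without inner replicate 4. The myocardin genes MYOCD and MRTFA were detected on 0 arrays, while MRTFB of the same family was detected on 3 outer and 4 inner arrays. SRF itself was detected on 4 outer and 4 inner arrays.

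Basal epithelial genes and relatives of TP63 were split evenly. Of 29 genes on the array 20 were tested, 10 higher and 10 lower in outer cells, with a median log2 difference of 0.00 and 0 called. At an unadjusted p below 0.05 there were 0 upward and 1 downward differences, against 4.08% and 3.99% of all tested probes. KRT15, a basal keratin, had outer intensities of 207.2, 323.9, 160.7 and 36.0 and inner ones of 440, 447, 399.9 and 324.8. Its log2 difference was -1.79 (standard error 0.77, adjusted p = 0.619), and every outer intensity lay below every inner one, by the narrowest margin at outer replicate 2. After normalisation the groups overlapped. DSG3 and DSC3, desmosomal cadherins, differed by -2.02 and -0.76. DSG3 had intensities of 161.5 and 170.8 on outer replicates 3 and 4 and of 1272 or more on the other 6 arrays. Without outer replicate 3 DSC3 was at -0.35, and without outer replicate 4 KRT15 was at -1.02. CAV1, the coat protein of caveolae, differed by 0.29, and after normalisation its outer arrays all lay above its inner arrays. That held for 1 of the 20 tested genes, where 5.26% of all tested probes had no overlap. TP73, a relative of TP63, and the basal markers NGFR and THY1 were detected on 0 arrays. Of the 8 markers of luminal cells 6 were detected on any array and 5 tested. All 5 had the lower mean in outer cells, under every scaling tried, with a median log2 difference of -1.27 and 0 called. Over all tested genes, 50.6% had the higher mean in outer cells. GATA3 was detected on 1 outer and 3 inner arrays and ELF3 on 1 outer and 4 inner arrays. Both passed the filter mainly through the group where they were higher, so their direction is partly set by the filter. KRT18 was not among the 5, although one of its probes had intensities of 903 to 1346, because the detection p of that probe lies off the regular steps and met the threshold on 2 arrays. Their median level per array was 6.75 to 7.48 in outer and 7.65 to 9.06 in inner cells, with KRT19 and ESR1 at 0 arrays, and their part in the values above was not tested.

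**Figure D4:**
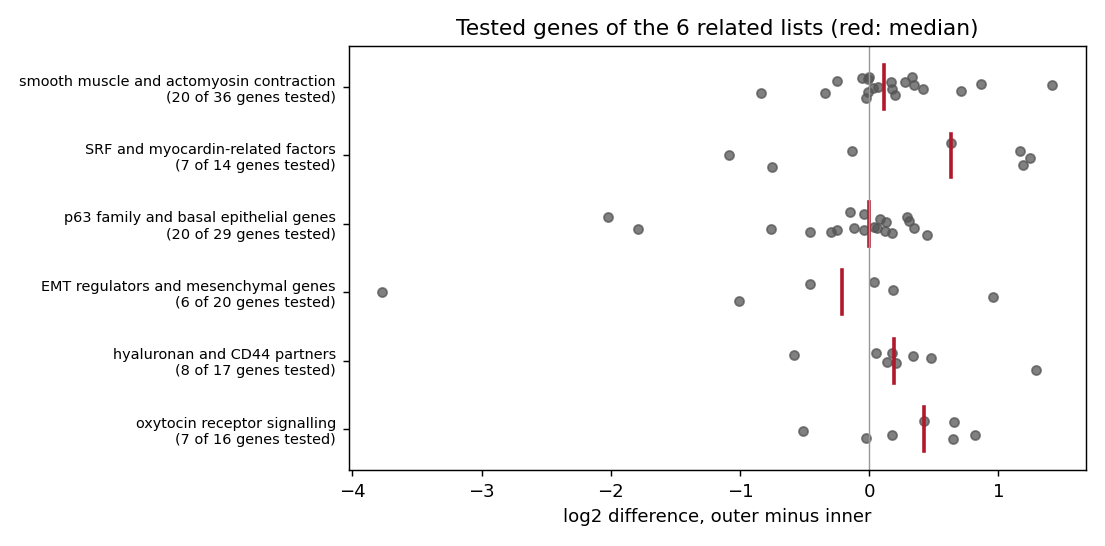
Log2 difference (outer minus inner) of each tested gene in the 6 related lists (points), with the median of each list in red. Most points lie within 1 log2 unit of 0. The point farthest out is LOX, at -3.77, in the list of epithelial-mesenchymal transition genes, and none of the points was called.

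Beside SNAI2 and VIM, 20 genes of epithelial-mesenchymal transition were on the array, of which 11 were detected on 0 arrays, close to the share among all probes. The 6 that were tested were 3 higher and 3 lower in outer cells, with a median log2 difference of -0.21 whose sign changed in 6 alternatives. None was called, and 0 upward and 2 downward differences had an unadjusted p below 0.05, against 4.08% and 3.99% of all tested probes. LOX, lysyl oxidase, which cross-links collagen, had outer intensities of 26.7, 27.5, 383 and 22.5 and inner ones of 310.3, 1164, 466 and 589. It was detected on outer replicate 3 and on all 4 inner arrays, and after normalisation every outer array lay below every inner one. Its log2 difference was -3.77 (standard error 0.95, limma, adjusted p = 0.392), and without outer replicate 3 it was -4.79 and passed the threshold (adjusted p = 0.0227). That fit left out the only outer array on which LOX was detected, so it set background against signal. LOX passed the filter mainly through the inner arrays, where it was higher, so its direction is partly set by the filter. Over the 19 alternatives that tested LOX the adjusted p ran from 0.0227 to 0.638. S100A4, a calcium-binding protein of motile cells, differed by -1.01 (standard error 0.32, adjusted p = 0.499), again with groups that did not overlap. ESRP2, an epithelial splicing regulator, differed by 0.96 and TGFBI, a secreted matrix protein, by 0.19. After normalisation the outer arrays of TGFBI all lay above its inner arrays. Of the 6 tested genes, 1 thus had all outer arrays above and 2 had all below, where 5.26% of all tested probes had no overlap. SNAI1, TWIST1 and ZEB1, regulators of the transition, and its cadherin CDH2 were detected on 0 arrays, as was the epithelial cadherin CDH1. Other regulators in the list were detected on some arrays. TCF3 was detected on 3 outer and 3 inner arrays, ZEB2 on 2 outer arrays, TCF4 on 1 outer array and FOXC2 on 1 inner array.

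Partners of CD44 and of OXTR gave no called gene. Over all tested genes 50.6% had the higher mean in outer cells, with a median log2 difference of 0.0067. Of all tested probes 8.06% had an unadjusted limma p below 0.05. Of 17 hyaluronan and CD44 partner genes 8 were tested, 7 higher and 1 lower in outer cells, with a median log2 difference of 0.19 and 0 at an unadjusted p below 0.05. HMMR, a hyaluronan-binding protein of the spindle, was the lower one at -0.58, and HYAL3, of the hyaluronidase family, differed by 1.29, RDX (radixin) by 0.48 and the hyaluronan synthase HAS3 by 0.34. The CD44 probe itself lay on the other side, at -0.21. Of 16 genes of oxytocin receptor signalling 7 were tested, 5 higher and 2 lower, with a median of 0.42 and 0 at an unadjusted p below 0.05. ITPR3, an inositol trisphosphate receptor, differed by -0.51, RGS2, which restrains Gq signalling, by 0.65, the calcium pump ATP2A2 by 0.42 and GNAQ, the Gq alpha subunit, by 0.82. Single arrays weighed on them: without outer replicate 3 ATP2A2 was at 0.09 and the list's median at 0.09, and GNAQ ran from 0.28 to 1.77 over the fits that left out 1 array. GNAQ was detected on 3 outer arrays and 1 inner array, and thus passed the filter mainly through the group where it was higher. The ATP2A2 values are of probe ILMN_4412, detected on 4 outer and 2 inner arrays, whose detection p lies off the regular steps. Another ATP2A2 probe, ILMN_19965, lies on the steps and was detected on 4 outer and 4 inner arrays. The difference of ILMN_19965 is not given here. The ligand gene OXT was, as OXTR itself, detected on 0 arrays.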

How the data were processed

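Illumina arrays, 8 in all, were grouped by the sample titles. Per the file headers, the authors deposited a mean bead intensity for each probe, and its values were neither background-subtracted nor normalised. Each deposited detection p-value lies on one of 708 regular steps for 19054 of 20589 probes, including the 12 described. Bright probes off these steps can count as undetected. In the authors' table the scaled value is the ratio of an intensity to its array's mean, and inner over outer is a ratio of group medians. Bead counts and bead standard errors come from the same deposited table, per the file headers. The scanning software is not given in the sources used here.

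Intensities were corrected with normexp, as in neqc of limma 3.58.1 (R 4.3.3), with the background taken from the probes on the steps, an offset of 16, quantile normalisation and log2. One probe without beads was dropped. Probes detected (p below 0.01) on 4 or more arrays were fitted with lmFit and eBayes, group as the only term, with Benjamini-Hochberg adjustment over all 6698 and a threshold of 0.05. Fold changes of dim probes are understated by the offset. The fit was tested on simulated data. The number of arrays limits the precision.

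The genes, the lists and this background estimate were chosen with earlier results of these data known. All members are named, with up to 4 genes of smallest p per list and the 2 most alike probes per tested member. Others were named after their values were seen. A result that this rule would name is not reported here. Old symbols were updated through RefSeq names. As alternatives, the background correction, scaling, filter and variance model were changed, replicate numbers were used as a block, and each array was left out.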

Additional observations from a re-analysis of the deposited data

Results flagged for a closer look

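Of 22 groups of 4 values examined, 6 held 1 value far from the other 3 by Dixon's criterion, where chance gives about 1 in 20. The raw and normalised scales of 1 gene are not independent. SNAI2 stood out in both compartments. On outer replicate 4 its intensity was 563, against 38.8 to 101.9 on the other outer arrays. On inner replicate 1 its intensity was 477 against 34.0 to 37.2, and its normalised log2 intensity was 9.29 against 4.49 to 4.58. ACTA2 was far above the other outer arrays on outer replicate 1, with an intensity of 1127 against 469 to 552 and a log2 intensity of 9.93 against 8.92 to 9.05. Inner replicate 3 had 7000 detected probes, against 6571 to 6615 on the other inner arrays, and it was the array on which ACTA2 was lowest. What lies behind these values was not tested.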

How the results depend on the processing

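TP63, VIM, ACTA2 and CD44 kept their direction and stayed uncalled under all 20 alternatives, with log2 differences of -0.41 to -0.13, 0.09 to 0.46, 0.13 to 0.61 and -0.30 to -0.13. The difference of SNAI2 was 0.01 to 0.61 over the other normalisations and turned negative, at -0.44, without outer replicate 4. The 4 calls over all probes became 1 with the background from all probes, 2 with the saddle-point normexp and 2 with no detection filter. They became 0 with probes detected on all 8 arrays, where 358 had an unadjusted limma p below 0.05. Leaving out 1 array gave 1 to 5 calls, with 2 without outer replicate 1 and 1 without inner replicate 2. The median of the SRF list, 0.64, was 0.072 with the background from all probes, 0.0023 with no filter and 0.10 with all probes at a detection p below 0.05 on any array. The first of these shrinks dim probes by its construction: LOX was then at -0.93, KRT15 at -0.43, DSC3 at -0.36, TGFB1I1 at -0.11, HYAL3 at 0.16, CCN1 at 0.07, SMTN at 0.05 and CNN2 and GNAQ at 0.02. The luminal median, -1.27, was -0.19 there, -0.58 with no filter and -0.60 with probes detected on all 8 arrays. The contraction median, 0.12, was 0.00 to 0.20 over all alternatives. Leaving out 1 array also moved ESRP2 to 0.54 (inner replicate 2), HMMR to -0.37 (outer replicate 1), RDX to 0.30 (inner replicate 2), ITPR3 to -0.33 (outer replicate 2), HYAL3 to 2.00 (inner replicate 1) and RGS2 to 0.41 (outer replicate 4) or 1.00 (inner replicate 3). HAS3, at 0.34, ran from -0.10 (without inner replicate 2) to 0.69 when 1 array was left out. The medians of the basal and transition lists, near 0, changed sign in 5 and 6 alternatives. The oxytocin list's, 0.42, did in 1, at -0.0008 with no filter, and was 0.09 to 0.60 when 1 array was left out.

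With the replicate number as a block, 0 probes were called (limma, 525 at an unadjusted p below 0.05), and the adjusted p was 0.918 for TP63, 0.891 for VIM, 0.798 for ACTA2 and 0.889 for CD44. Deviations of same-numbered arrays correlated at -0.01 to 0.04, below 0.1, and those of other pairs at -0.03 to 0.02. The same-numbered inner array had the highest correlation for outer replicates 1, 2 and 3, and the lowest for outer replicate 4. Correlations this small do not decide whether the numbers pair the samples. A block for the BeadChip was left out, as no column used here names a chip. Depth limits the undetected genes: a signal below 51.4 to 77.0 could not be told from background.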
